A study of Homo sapiens with 6 samples.

Results

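The miR-99/100 and miR-125 families are read here in small RNA libraries of extracellular vesicles (EVs) as 6 mature miRNAs, hsa-miR-99a-5p, hsa-miR-99b-5p, hsa-miR-100-5p, hsa-miR-100-3p, hsa-miR-125a-5p and hsa-miR-125b-5p. They were taken by name from a table of 832 miRNAs, and all 6 were found. EVs were pelleted by ultracentrifugation from the EV-free medium of MDA-MB-231, an established line of human breast cancer without hormone receptors or HER2 amplification that the labels class as epithelial. The control group is wild type for genotype (231 EV, n = 3) and the other group carries a knockdown of ACO1, an aconitase that also binds iron-responsive RNA elements (231/ACO1 KD EV, n = 3). Libraries of the first are called control libraries and those of the second knockdown libraries, and values are listed in the order of replicates 1, 2 and 3. How ACO1 was knocked down in these cells, whether 1 clone was used, and whether replicates came from separate cultures are not given in the sources used here, so p-values measure the spread between these libraries, which may be technical. Small RNA libraries do not read ACO1 mRNA, so the knockdown was not checked.

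Both families are conserved across animals. The miR-99/100 miRNAs share a seed, the short stretch near the 5′ end that pairs with target mRNAs, and are known to repress mTOR and IGF1R, while miR-125 is the vertebrate counterpart of lin-4, the first miRNA described, and is known for targets among apoptosis and ERBB genes. Their hairpins sit in clusters with a let-7 hairpin, so a single primary transcript can give a miR-99/100, a let-7 and a miR-125. From each hairpin Dicer cuts a 5p and a 3p arm, and usually 1 of them, the guide, is kept in Argonaute while the other, the passenger, is degraded.

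The mature sequences (RefSeq, GRCh38.p14) are shown because the shared seeds and the near identity of the members decide how reads can be told apart. Capitals mark the seed, bases 2 to 8.
hsa-miR-99a-5p: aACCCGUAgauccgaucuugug
hsa-miR-99b-5p: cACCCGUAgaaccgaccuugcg
hsa-miR-100-5p: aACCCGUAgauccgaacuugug
hsa-miR-100-3p: cAAGCUUGuaucuauagguaug
hsa-miR-125a-5p: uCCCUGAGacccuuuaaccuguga
hsa-miR-125b-5p: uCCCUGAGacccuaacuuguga

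The 3 miR-99/100 5p arms share 1 seed, both miR-125 5p arms share another, and miR-100-3p has a seed of its own. Counting from 1 at the 5′ end, miR-99a-5p differs from miR-100-5p by A16U alone, and miR-99b-5p differs from miR-100-5p by A1C, U11A, A16C and U21C. miR-125a-5p has 24 bases and miR-125b-5p has 22, and both begin with the same 13 bases. How reads that fit more than 1 of these sequences were assigned is not given in the sources used here, so the split between miR-99a-5p and miR-100-5p is uncertain in part.

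The hairpins lie at 3 places (GRCh38). On chromosome 11, MIR100 (chr11:122152229-122152308, minus strand) and MIR125B1 (chr11:122099757-122099844, minus strand) lie 52384 bases apart with MIRLET7A2 between them, within introns of the lncRNA gene MIR100HG. Of its 39 annotated transcripts, 8 span MIR100 and 23 span MIR125B1, so many could give MIR125B1 alone. On chromosome 21, MIR99A (chr21:16539089-16539169, plus strand) and MIR125B2 (chr21:16590237-16590325, plus strand) lie 51067 bases apart with MIRLET7C between them, within introns of the lncRNA gene MIR99AHG. Of its 21 annotated transcripts, 13 span MIR99A and 14 span MIR125B2. On chromosome 19, MIR99B (chr19:51692612-51692681, plus strand), MIRLET7E and MIR125A (chr19:51693254-51693339, plus strand) lie within an intron of 1 SPACA6 transcript and overlap an exon of the antisense gene SPACA6P-AS, with 572 bases between MIR99B and MIR125A. Mature miR-125b-5p is cut from MIR125B1 and from MIR125B2 with the same letters, so its reads cannot be assigned to chromosome 11 or 21. The 3p arms differ and mark their own hairpin. The MIR100 hairpin, which gives 2 of the 6 members, is printed with both arms in capitals.
MIR100: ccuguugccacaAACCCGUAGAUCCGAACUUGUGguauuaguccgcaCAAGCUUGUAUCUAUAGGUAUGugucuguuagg

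Total counts ranged from 224948 to 230562 in the control libraries and from 67873 to 175924 in the knockdown libraries, of which replicate 2 was the shallowest. 1 count was therefore worth 4.34 to 4.45 TPM in the control and 5.68 to 14.7 TPM in the knockdown libraries. In these TPM values each count is scaled by its library total alone, with no length term. The knockdown libraries were less alike than the control libraries: the root mean square log2 difference over 226 miRNAs was 0.448 to 0.557 within the control group and 0.585 to 0.820 within the knockdown group. 231/ACO1 KD EV replicate 3 lay nearest to the control libraries, at 0.810 to 0.942, so the members' TMM fold changes and the 13 ratios tested below are also given without it. Leaving out the library nearest to the control can by itself enlarge differences and lower p-values, so those values only describe how much rests on it. miR-21-5p, the most abundant miRNA in every library, took 28.5% to 31.2% of counts in the control libraries and 12.2%, 11.7% and 18.4% in the knockdown libraries. The 7 epithelial marker miRNAs, among them the miR-200 family, were all detected at a low summed level, 867 to 989 TPM in the control libraries and 634 to 992 TPM in the knockdown libraries. Markers of other cells were detected too. The summed level of 4 white cell markers was 8200 to 9660 TPM in the control libraries and 13431 to 15171 TPM in the knockdown libraries, that of 2 endothelial markers was 10098 to 11305 and 17124 to 20465 TPM, and that of 4 fibroblast and smooth muscle markers was 3432 to 3483 and 5076 to 5625 TPM. The 4 red cell markers summed lower in the knockdown, at 1597 to 2123 TPM against 2503 to 2676 TPM. The sum of 5 miRNAs known to be abundant in MDA-MB-231 was lower too, at 193626 to 264292 against 354317 to 389006 TPM. That sum includes miR-21-5p, whose share is given above, and was not taken without it, so it does not show that the 5 fell as a set. Liver and muscle markers overlapped between the groups. None of these markers was at 0 in all libraries, and their part in the results below was not tested.

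The 6 miRNAs together made up 11.3%, 10.6% and 11.3% of counts in the control libraries and 13.4%, 13.5% and 12.1% in the knockdown libraries. Their order was the same in nearly all libraries. miR-125b-5p was highest, followed by miR-100-5p, miR-125a-5p and miR-99b-5p, and each of these 4 stood above the next in 6 of 6 libraries with levels that did not overlap. miR-99a-5p and miR-100-3p, at the bottom, overlapped, with miR-99a-5p above in 5 of 6 libraries. Levels of different miRNAs also carry differences in adapter ligation, which were not measured, so the order is one of reads and not of molecules.

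miR-100-5p, the most abundant of the miR-99/100 group, fell. It had 6868, 7304 and 8076 counts in the control libraries, or 30532, 31679 and 35892 TPM, and 3160, 1340 and 4694 counts in the knockdown libraries, or 17962, 19743 and 29837 TPM. The groups did not overlap, and knockdown replicate 3 stood close below the control libraries while replicates 1 and 2 were far lower. It ranked 6th in each control library and 12th, 10th and 7th in the knockdown libraries. The mean was 32701 ± 2823 TPM in the control libraries and 22514 ± 6404 TPM in the knockdown libraries (SD, n = 3). In edgeR's quasi-likelihood test with TMM scaling the log2 fold change was -0.89 ± 0.13 (SE), 1.85-fold lower, with a Benjamini-Hochberg adjusted p of 3.37e-10 over 517 miRNAs. In this fit edgeR set each quasi-dispersion from all miRNAs together, and a miRNA's own spread got no weight. Because miR-100-5p varied by 28.4% (coefficient of variation) in the knockdown group, edgeR's robust option is the more careful value. It gave an SE of 0.20 and an adjusted p of 0.0216. With library totals in place of TMM the log2 fold change was -0.54 (edgeR, adjusted p = 0.000392), and without knockdown replicate 3 it was -1.18 (edgeR, adjusted p = 1.75e-29). That last p did not use the robust option and came after the library nearest to the control was dropped, so it is no stronger evidence. The exact two-sided permutation test on log2(TPM + 1) gave p = 0.1, the smallest that 3 libraries against 3 allow. Libraries count each miRNA as a share of the reads, so fewer vesicles that carry it and less of it per vesicle cannot be told apart.

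Of the 6 members, 1 passed an adjusted p of 0.05 in edgeR with TMM scaling, in the direction lower. Over all 517 miRNAs tested 8.51% passed, 6% lower and 2.51% higher. With library totals 3 of the 6 members passed, miR-100-5p lower and miR-125a-5p and miR-125b-5p higher, against 13.7% of all miRNAs, 2.51% lower and 11.2% higher. The split of calls moved with the scaling: 31 lower and 13 higher miRNAs with TMM became 13 lower and 58 higher with library totals, and the median log2 fold change of all tested miRNAs moved from -0.03 to 0.32. The members' median moved alike, from 0.01 to 0.37. On the TPM scale the groups did not overlap for 3 of 6 members, beside 28.4% of all miRNAs, and on the TMM scale for 1 of 6, miR-100-5p, beside 24.4%.

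miR-125b-5p, the most abundant member and a product of both lncRNA clusters, did not pass with TMM scaling. It had 71683, 64221 and 66923 TPM in the control libraries and 100180, 98787 and 79633 TPM in the knockdown libraries, all 3 knockdown libraries above all 3 control libraries and replicate 3 the nearest to them. Its log2 fold change was 0.10 ± 0.12 (SE, edgeR with TMM, adjusted p = 0.757) and 0.46 with library totals (edgeR, adjusted p = 0.00151). miR-125a-5p, from chromosome 19, had 5966, 5409 and 5253 TPM in the control libraries and 9623, 9562 and 6890 TPM in the knockdown libraries, again without overlap and with replicate 3 the lowest. Its log2 fold change was 0.29 ± 0.15 (SE, edgeR with TMM, adjusted p = 0.262), 0.65 with library totals (adjusted p = 0.00024) and 0.42 without knockdown replicate 3 (adjusted p = 0.00293), so its call rested on the scaling and on that library.

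The other miR-99 arms did not pass under TMM or library totals. miR-99b-5p, the partner of miR-125a-5p on chromosome 19, had 3330, 3344 and 3613 TPM in the control libraries and 4906, 5142 and 3521 TPM in the knockdown libraries, and the groups overlapped through replicate 3. Its log2 fold change was 0.03 ± 0.16 (SE, edgeR with TMM, adjusted p = 0.937) and 0.40 with library totals (adjusted p = 0.0742). miR-99a-5p, which differs from miR-100-5p by a single base, had only 124, 140 and 167 counts in the control libraries and 84, 53 and 140 in the knockdown libraries. Its groups overlapped on the TPM scale, and its log2 fold change of -0.19 ± 0.23 (SE, edgeR with TMM, adjusted p = 0.754) turned to 0.17 with library totals. miR-100-3p had 102, 80 and 112 counts in the control libraries and 114, 37 and 72 in the knockdown libraries, and its log2 fold change of -0.01 ± 0.25 (SE, edgeR with TMM, adjusted p = 0.994) turned to 0.35 with library totals. Without knockdown replicate 3 none of these passed in edgeR either, nor did miR-125b-5p, with log2 fold changes of 0.17 for miR-99b-5p, -0.44 for miR-99a-5p, 0.11 for miR-100-3p and 0.18 for miR-125b-5p (adjusted p = 0.449, 0.2, 0.839 and 0.187).

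**Figure D1:**
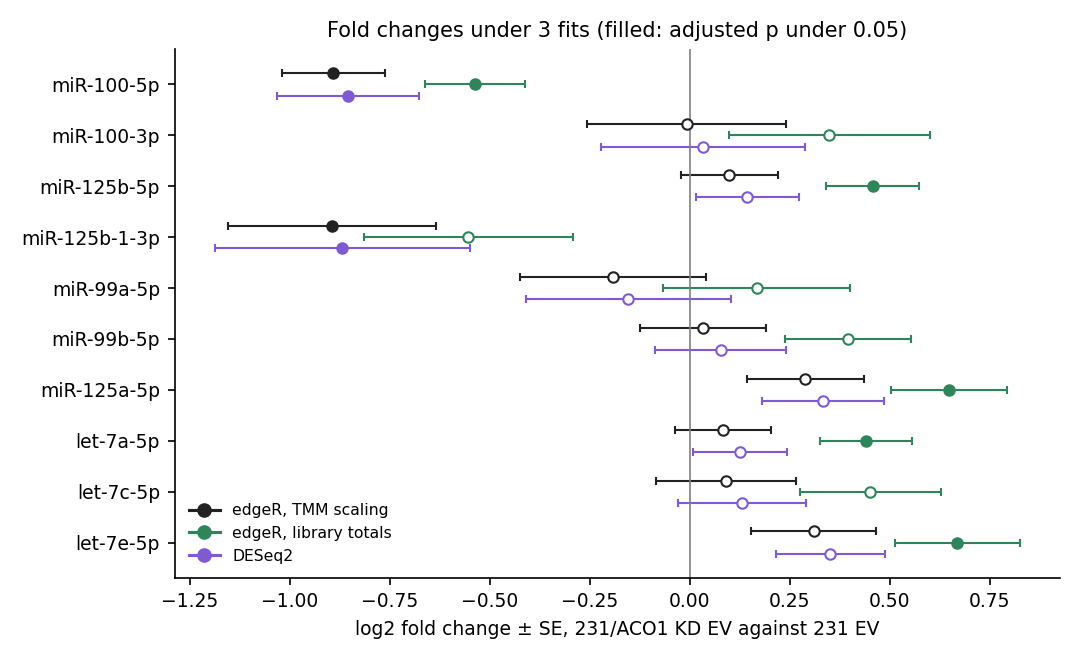
Log2 fold change of 231/ACO1 KD EV against 231 EV with its standard error for the 6 miRNAs, miR-125b-1-3p and the let-7 5p arms of the clusters, under edgeR with TMM scaling (black), edgeR with library totals (green) and DESeq2 (purple); filled points have an adjusted p under 0.05. miR-100-5p is filled under all 3, from -0.54 to -0.89, while miR-125a-5p and miR-125b-5p are filled, of these 3 fits, only with library totals.

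As shares of the library totals the sums by seed differed in opposite directions, and they were not tested. These sums hold for that scale only: on the TMM scale both miR-125 5p arms overlapped between the groups and neither passed. The miR-99/100 5p arms summed to 3.44%, 3.56% and 4.02% of counts in the control libraries and to 2.33%, 2.57% and 3.42% in the knockdown libraries. The miR-125 5p arms summed to 7.76%, 6.96% and 7.22% in the control libraries and to 10.98%, 10.8% and 8.65% in the knockdown libraries. Within the miR-99/100 seed group, miR-100-5p gave 88.7%, 88.9% and 89.2% of reads in the control libraries, and 76.9%, 76.9% and 87.1% in the knockdown libraries. For knockdown replicate 1 the 95% Wilson interval of that share was 75.6% to 78.2%, which covers counting error only.

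A ratio of 2 miRNAs within a library does not depend on the scaling, so members that can come from 1 transcript were compared in this way. For the chromosome 11 transcript, miR-100-5p was set against miR-125b-5p, whose reads also come from MIR125B2 on chromosome 21 and cannot be split. This ratio is therefore not one of chromosome 11 products alone, and ratios to miR-125b-1-3p, which only chromosome 11 gives, follow further below. There were 0.426, 0.493 and 0.536 reads of miR-100-5p per read of miR-125b-5p in the control libraries. The knockdown libraries had 0.179, 0.200 and 0.375. All knockdown libraries lay below all control libraries, with replicate 3 nearer to the control than to replicates 1 and 2. The ratio was 2.03-fold lower in the knockdown group, a log2 difference of -1.02 with a 90% interval of -1.58 to -0.18 from the exact rank test (exact two-sided permutation p = 0.1, the smallest possible, and 0.186 after Benjamini-Hochberg adjustment over 13 ratios). Without knockdown replicate 3 it was -1.35. Its SD over libraries was 0.17 in the control libraries and 0.57 in the knockdown libraries, where counting alone would give 0.020 and 0.033, so counting error is a small part of the spread.

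On chromosome 19 the differences were smaller, and the difference between clusters was not itself tested. There were 0.558, 0.618 and 0.688 reads of miR-99b-5p per read of miR-125a-5p in the control libraries and 0.510, 0.538 and 0.511 in the knockdown libraries, a log2 difference of -0.25 (90% interval -0.43 to -0.05, exact permutation p = 0.1). The groups did not overlap, and the difference was -0.24 without knockdown replicate 3. let-7e-5p, which lies between those hairpins, was higher relative to miR-99b-5p, by 0.29 on the log2 scale and without overlap (90% interval 0.04 to 0.59, exact permutation p = 0.1) and differed from miR-125a-5p by 0.033 with overlap (90% interval -0.23 to 0.31, exact permutation p = 0.8). Without knockdown replicate 3 these differences were 0.17 and -0.069. For the chromosome 21 transcript, miR-99a-5p was set against miR-125b-5p, whose reads also come from chromosome 11. The log2 ratio of miR-99a-5p over miR-125b-5p differed by -0.31 with overlapping groups (90% interval -1.21 to 0.54, exact permutation p = 0.7), and that of let-7c-5p over miR-99a-5p by 0.31 (90% interval -0.42 to 1.04, exact permutation p = 0.5). For the former the SD over libraries was 0.26 in the control and 0.62 in the knockdown libraries, where counting alone would give 0.12 and 0.16. Without knockdown replicate 3 the differences were -0.59 and 0.58, and without knockdown replicate 1 they were 0.018 and 0.026, so neither size was stable over libraries.

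Between paralogues on different transcripts, the ratios of miR-100-5p were lower too, but they reuse the same miR-100-5p counts and are no separate observation. There were 9.17, 9.47 and 9.93 reads of miR-100-5p per read of miR-99b-5p in the control libraries, and 3.66, 3.84 and 8.47 in the knockdown libraries, a log2 difference of -0.95 (90% interval -1.44 to -0.11, exact permutation p = 0.1). Against miR-99a-5p there were 55.4, 52.2 and 48.4 reads in the control libraries and 37.6, 25.3 and 33.5 in the knockdown libraries, a log2 difference of -0.71 (90% interval -1.14 to -0.37, exact permutation p = 0.1), and here replicate 3 did not stand nearest to the control. Without knockdown replicate 3 these differences were -1.34 and -0.76. miR-125b-5p over miR-125a-5p shifted by -0.18 (90% interval -0.30 to -0.04, exact permutation p = 0.1) without overlap, and by -0.24 without knockdown replicate 3.

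Several of the 13 ratios share the counts of miR-100-5p, so the ratios are not independent. Of the 13 ratios, 7 did not overlap between the groups. This share has to be read against a high background: of the 7626 pairs among the 124 miRNAs with a miRBase name and a mean count of at least 50, 42.1% did not overlap either. The 3p arms of MIR99A and MIR125A lie below that count, so their ratios, which both overlapped, have no like pairs in this background. By size, 12.6% of those pairs differed by at least as much as miR-100-5p and miR-125b-5p did, 15.4% by as much as miR-100-5p and miR-99b-5p, and 67.9% by as much as miR-99b-5p and miR-125a-5p. The median pair differed by 0.43 on the log2 scale.

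The arms of a hairpin are cut from the same molecule, and the share of the MIR100 arms did not overlap between the groups, though knockdown replicate 3 came close. miR-100-3p made up 1.46%, 1.08% and 1.37% of the reads of both arms in the control libraries and 3.48%, 2.69% and 1.51% in the knockdown libraries. It was the minor arm in every library, so the name guide strand, which fits the 5p arms, does not hold for it in these EVs. There were 67.3, 91.3 and 72.1 reads of miR-100-5p per read of miR-100-3p in the control libraries and 27.7, 36.2 and 65.2 in the knockdown libraries, without overlap, a log2 difference of -0.92 (90% interval -1.72 to -0.05, exact permutation p = 0.1). Of the pairs described above, 16.5% differed by as much, and without knockdown replicate 3 the difference was -1.27. The log2 ratio of the MIR99B arms differed by 0.0043, with overlap and a 90% interval of -0.65 to 0.55 (exact permutation p = 1), and by 0.26 without knockdown replicate 3, and the 2 hairpins were not compared by a test. The 3p arms of MIR99A and MIR125A had 1 to 11 counts in a library, and their ratios to the 5p arms differed by -0.35 (90% interval -1.88 to 1.86, exact permutation p = 0.7) and -0.23 (90% interval -1.18 to 0.42, exact permutation p = 0.6) on the log2 scale, and by -1.12 and -0.39 without knockdown replicate 3.

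The 11 relatives are the other arms and the let-7 arms of these transcripts, and all 11 could be tested. 1 of 11 passed in edgeR with TMM scaling, in the direction lower, and 2 of 11 passed with library totals, both higher, beside the 8.51% and 13.7% of all miRNAs. The one that passed with TMM was miR-125b-1-3p, the 3p arm that only MIR125B1 on chromosome 11 gives, shown here because its reads, unlike those of miR-125b-5p, can be placed on that chromosome.
hsa-miR-125b-1-3p: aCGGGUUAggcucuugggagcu
It had 109 counts in each control library and 35, 16 and 83 in the knockdown libraries, or 485, 473 and 484 TPM against 199, 236 and 528 TPM. Replicates 1 and 2 of the knockdown were low and replicate 3 was above the control on the TPM scale, so the groups overlapped there and did not on the TMM scale. Its log2 fold change was -0.89 ± 0.26 (SE, edgeR with TMM, adjusted p = 0.0116). The call was lost with library totals (-0.55, edgeR, adjusted p = 0.159), with a filter of at least 10 counts in 3 libraries (-0.84, edgeR, adjusted p = 0.0718) and without 231 EV replicate 1, 231 EV replicate 3 or knockdown replicate 1 (-0.94, -0.85 and -0.60, edgeR, adjusted p = 0.0503, 0.0983 and 0.205), and without knockdown replicate 3 the log2 fold change was -1.54. The 2 that passed with library totals were let-7a-5p, which comes from hairpins on 3 chromosomes (0.44, edgeR, adjusted p = 0.00212), and let-7e-5p (0.67, edgeR, adjusted p = 0.000392). With TMM their log2 fold changes were 0.08 and 0.31, that of let-7c-5p was 0.09, and none of the 3 passed. let-7e-5p did pass with a filter of at least 10 counts in 3 libraries (0.38, edgeR with TMM, adjusted p = 0.0311) and without knockdown replicate 3 (0.35, edgeR with TMM, adjusted p = 0.0438). Without that library let-7a-5p was at 0.09 and let-7c-5p at 0.16 (edgeR, adjusted p = 0.577 and 0.575). The relatives' median was 0.08 with TMM, beside -0.03 over all miRNAs.

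Set side by side, the arms of the 2 chromosome 11 hairpins were compared in 4 further ratios, chosen after the values were seen and given without a test. miR-100-5p and miR-125b-1-3p were both low in knockdown replicates 1 and 2, with 63.0, 67.0 and 74.1 reads of the first per read of the second in the control libraries and 90.3, 83.8 and 56.6 in the knockdown libraries, and this ratio overlapped between groups with a mean log2 difference of 0.13. miR-100-3p and miR-125b-5p kept an overlapping ratio too, with a difference of -0.10. There were 148, 136 and 138 reads of miR-125b-5p per read of miR-125b-1-3p in the control libraries and 504, 419 and 151 in the knockdown libraries, a log2 difference of 1.16 without overlap, with replicate 3 just above the control libraries. miR-100-3p over miR-125b-1-3p differed by 1.06 on the log2 scale, and here replicate 3 fell among the control libraries. miR-125b-5p also comes from MIR125B2, whose 3p arm had only 2 to 10 counts in a library, so the share of each hairpin in it was not measured.

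**Figure D2:**
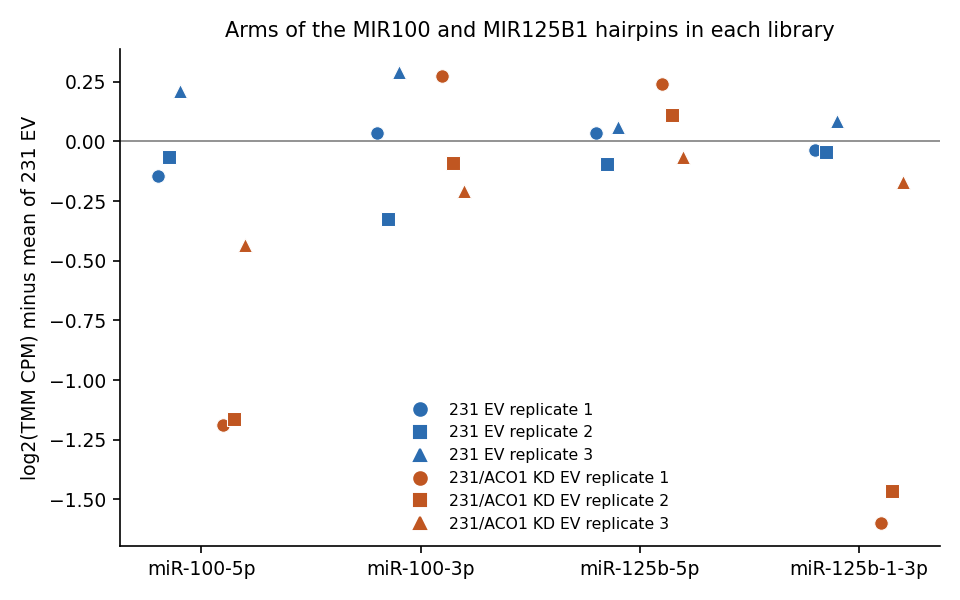
Log2 of TMM-scaled CPM minus the mean of 231 EV for the arms of MIR100 and for miR-125b-5p and miR-125b-1-3p in each library (blue 231 EV, orange 231/ACO1 KD EV, shapes for replicates); miR-125b-5p also comes from chromosome 21. miR-100-5p and miR-125b-1-3p lie low in knockdown replicates 1 and 2 and nearer to the control in replicate 3, and the points of miR-100-3p and miR-125b-5p overlap between groups.

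Profiles over the libraries were alike among some members and not among others. By the root mean square difference of centred log2 CPM over the 6 libraries, among 123 other miRNAs with a mean count of at least 50, the profile most like that of miR-100-5p was that of miR-221-3p (0.04), followed by miR-425-5p (0.07) and miR-181b-5p (0.09), while miR-125b-5p, which it can share a transcript with, came 86th (0.62). miR-221-3p, miR-425-5p and miR-181b-5p were themselves lower in the knockdown, with log2 fold changes of -0.87, -0.81 and -0.81 (edgeR with TMM, adjusted p = 7.47e-09, 7.04e-06 and 0.0116). Their likeness to miR-100-5p thus includes the difference between the groups. For the other members miR-125b-5p came 5th for miR-125a-5p (0.11), 7th for miR-99b-5p (0.10), 5th for miR-100-3p (0.16) and 62nd for miR-99a-5p (0.42). miR-125b-5p was most like let-7b-5p (0.04), let-7i-5p (0.04) and miR-194-5p (0.06). miR-125a-5p was most like miR-30c-5p (0.08), let-7f-5p (0.09) and miR-342-3p (0.11), and miR-99b-5p was most like miR-191-5p (0.06), miR-93-5p (0.07) and let-7i-5p (0.09). The nearest profiles lay further off for miR-99a-5p, with miR-361-5p (0.17), miR-423-3p (0.17) and miR-99b-3p (0.21), and for miR-100-3p, with miR-182-5p (0.13), miR-16-5p (0.14) and let-7i-5p (0.15). All points come from the same 6 libraries, so likeness also carries what those libraries share.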

How the data were processed

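Small RNA from EVs was sequenced in 3 control (231 EV) and 3 knockdown (231/ACO1 KD EV) libraries. The authors kept short reads, filtered other RNA classes with Rfam, assigned reads to miRBase entries and added predicted miRNAs. Bowtie2, StringTie and hg38 are named in the submitters' processing notes. For each miRNA the authors deposited raw read counts and TPM values, where TPM equals count over library total to within 4.99e-05. Reads carry no molecular identifiers in the table.

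Counts were compared with edgeR 4.0.16 (R 4.3.3), quasi-likelihood test, TMM scaling, no covariates, over the 517 miRNAs detected (count above 0) in 3 or more of 6 libraries, with Benjamini-Hochberg adjustment and a threshold of 0.05. Ratios within a library used a pseudocount of 0.5 and an exact two-sided permutation test (SciPy 1.17.1), and the range of the 9 differences between libraries is the 90% interval. The scripts were tested on simulated data. In chi-square tests no 2 replicates were as alike as counting noise allows, and each was kept as 1 sample. Alternatives were library totals, RLE scaling, TMM without the 10 highest miRNAs, DESeq2 1.42.0, limma 3.58.1 on log2(TPM + 1) or log2(TPM + 10), other filters, edgeR's robust option, a replicate block and each library left out. Named are all members, the relatives called or in let-7, and for each member the 3 miRNAs of most like profile. Sequences are from RefSeq (GRCh38.p14, 6 of 6 members and 11 of 11 relatives matched), host genes from GENCODE on GRCh38. Members, lists and ratios were chosen with earlier results of these data known, and 4 ratios were added after seeing the values.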

Additional observations from a re-analysis of the deposited data

How the results depend on the processing

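miR-100-5p stayed lower and past the threshold under all 16 alternatives, with log2 fold changes of -1.18 to -0.54. The alternatives scaled by library totals, edgeR with totals, limma on log2(TPM + 1) and limma on log2(TPM + 10), called 3, 3 and 3 members, 2, 4 and 4 relatives and 71, 75 and 76 miRNAs in all. RLE scaling and DESeq2 each called 1 member and 1 relative, with 51 and 41 miRNAs in all. With library totals and both limma fits the log2 fold change was 0.65, 0.63 and 0.63 for miR-125a-5p and 0.46, 0.45 and 0.45 for miR-125b-5p, now past the threshold, 0.17, 0.14 and 0.14 for miR-99a-5p and 0.35, 0.35 and 0.34 for miR-100-3p, both now above 0. miR-100-3p was also above 0 with RLE scaling (0.031), DESeq2 (0.033) and a filter of at least 10 counts in 3 libraries (0.060), and miR-99b-5p was -0.012 with TMM without the 10 highest miRNAs. With 5 as pseudocount the ratio of the MIR99B arms differed by -0.042. The TMM factors were 0.840 to 0.915 in the control libraries and 1.09 to 1.20 in the knockdown libraries. Scaling by library totals alone therefore puts every miRNA higher in the knockdown, relative to the control, than TMM does. Why the factors differ between the groups was not tested, nor was the cause of the other shifts.

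Leaving out 1 library at a time called 1 to 2 members, 0 to 2 relatives and 19 to 70 miRNAs in all (20 and 19 without 231 EV replicate 1 or replicate 3, and 70 once 231/ACO1 KD EV replicate 3 was left out). The log2 fold changes then ranged from -0.44 to 0.039 for miR-99a-5p, -0.054 to 0.17 for miR-99b-5p, -0.17 to 0.15 for miR-100-3p and 0.19 to 0.42 for miR-125a-5p. The log2 ratio differences ranged from -0.59 to 0.018 for miR-99a-5p over miR-125b-5p, -0.069 to 0.13 for let-7e-5p over miR-125a-5p, -0.22 to 0.26 for the MIR99B arms, -1.12 to 0.19 for the MIR99A arms and -0.41 to 0.025 for the MIR125A arms. The other 8 ratios kept their direction, but let-7c-5p over miR-99a-5p ranged from 0.026 (without knockdown replicate 1) to 0.58 (without replicate 3) and let-7e-5p over miR-99b-5p from 0.17 (without replicate 3) to 0.37.

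With 3 libraries in a group, whether equal replicate numbers mark pairs could not be decided. Their deviations from the group means correlated at -0.14, 0.04 and 0.23, and 3 of 6 libraries correlated best with their own number. With a replicate block edgeR called 44 miRNAs, 1 member and 1 relative, and the log2 fold change of miR-100-5p was -0.93. For the MIR99A and MIR125A arms counting alone would give an SD of 0.54 to 1.09 in the log2 ratio, so depth limits those ratios.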
